A study of Drosophila melanogaster with 3 samples.

Results

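Chromosome arm 3L, the left arm of chromosome 3 of Drosophila melanogaster, held 815 of the 4230 sites that the authors list for ORC2 in S2-DRSC cells. A site was counted when its sequence name in the authors' whole-series list was 3L, so its score and its width played no part in the choice. Peaks of the 2 ORC2 samples on the same arm, 1325 of 6834 in replicate 1 and 1383 of 7389 in replicate 2, were set beside the sites wherever they shared at least 1 bp. S2-DRSC is a male line made from late embryonic tissue and was grown here as asynchronous cultures. The groups were ORC2 ChIP, with 2 samples from separate extractions, and input DNA, with 1 sample whose reads were not analysed here. The antibody was an unpurified rabbit polyclonal raised against the whole Drosophila protein. Whether the extractions used separate cultures is not stated in the labels, so differences between the samples may be technical. A cell line holds 1 cell type in culture, and the copy number of 3L in these cells was not measured here.

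ORC2 belongs to the origin recognition complex (ORC). This complex binds DNA before replication starts and is the platform onto which the replicative helicase is loaded, so its binding sites mark places where replication may begin. In flies it has little preference for a particular sequence and is known mostly from open chromatin near active genes. It is also found in heterochromatin, the compact and repeat-rich chromatin that surrounds centromeres, which replicates late. Coordinates below are those of FlyBase release 5, as the files give them, and on 3L they run from the distal (telomeric) end towards the centromere. Genes and sequences at the sites were not looked up, since no genome or annotation of that release was used here.

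Each of the 815 sites ran from the first to the last base of overlapping replicate 1 and replicate 2 peaks. The list is therefore the part of the binding map that both samples share. Single peaks of each replicate made up 794 sites, and in all 794 the site's score was the mean of the 2 replicate scores within 1e-05. The other 21 sites joined 2 peaks of replicate 1 with 1 of replicate 2 (10 sites), or 1 of replicate 1 with 2 of replicate 2 (11 sites). The score is a number written per peak by the authors' caller, and the files do not say what it is relative to. Read depth is unknown, because the lists hold no read counts. The design allowed no test between conditions, and sites of 1 sample share their library and are not replicates. All comparisons below are therefore descriptions, with the value of each replicate beside them.

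On 3L the sites covered little of the arm and were short. There were 33.2 sites per Mb over 24.5 Mb, and together they spanned 0.893% of the bases. On the other large arms the density was 32.9 per Mb on 2L, 37.0 on 2R, 38.3 on 3R and 33.2 on X. The single lists had 54.0 peaks per Mb of 3L in replicate 1 and 56.4 in replicate 2, against 51.8 to 57.8 and 56.9 to 63.7 on the other 4 arms. The median width on 3L was 186 bp with an interquartile range of 126 to 316.5 bp, and the narrowest and widest sites had 29 and 4846 bp. The median score was 3.57 with an interquartile range of 2.90 to 4.53 and extremes of 1.19 and 18.8. Median scores on the other arms were 3.72 (2L), 3.77 (2R), 3.49 (3R) and 4.04 (X). The density, width and score of 3L thus lay within or close to the range of the other arms. These differences between arms were not tested.

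Sites were unevenly spread along the arm. A window of 100 kb held 3.31 ± 3.29 sites (SD, n = 246 windows), with a median of 2, and the variance over windows was 3.26 times the mean. In 55 of the 246 windows (22.4%) there was no site, while 29 windows (11.8%) with 8 or more sites held 297 of the 815 sites (36.4%). The median distance from one site to the next was 10244 bp, and 144 of the distances (17.7%) were under 1 kb. Empty windows made up 20% of 2L, 16.0% of 2R, 14.0% of 3R and 25.3% of X. In the single lists 13.4% (replicate 1) and 11.8% (replicate 2) of the 3L windows were empty. Counted per 1 Mb from the distal end, the first 23 bins held between 17 and 55 sites, with a median of 35. The fullest was the bin from 3 to 4 Mb, with 55 sites, 79 replicate 1 peaks and 99 replicate 2 peaks. The next was 17 to 18 Mb, with 53 sites and 75 and 81 peaks. The bins with fewest sites were 20 to 21 Mb, with 17 sites and 38 and 36 peaks, and 4 to 5 Mb, with 19 sites and 40 and 43 peaks. High and low bins were thus high and low in both samples, as they must be in part, since every site is a peak of both.

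**Figure D1:**
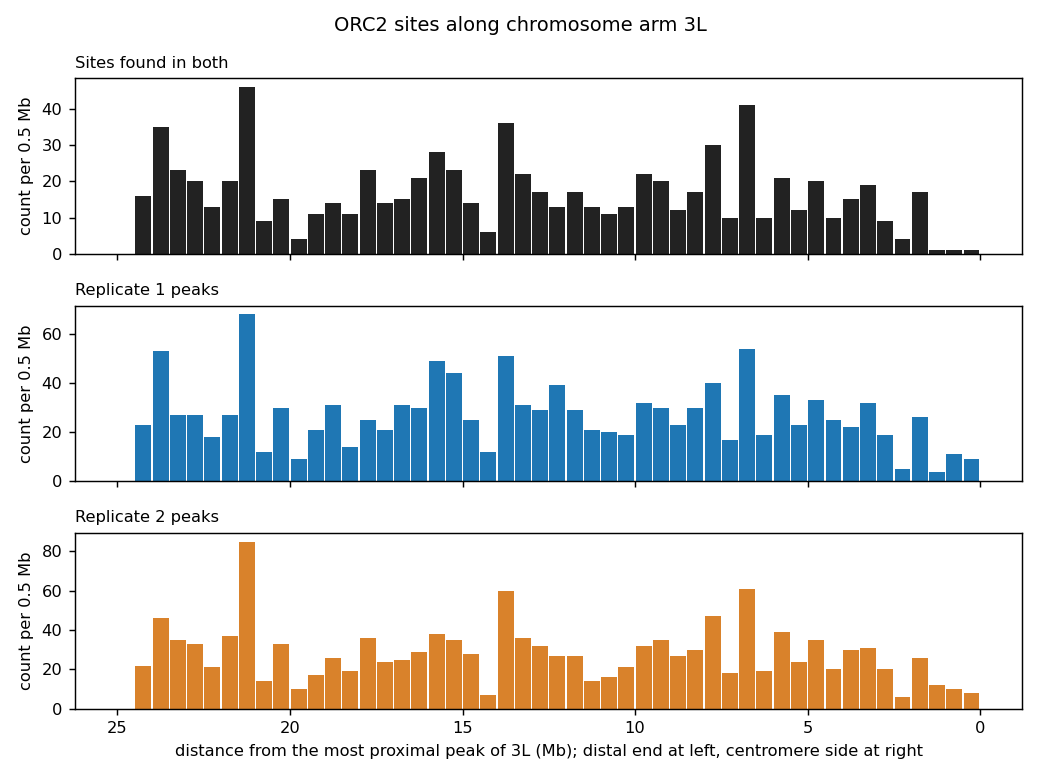
Counts per 0.5 Mb along 3L of the sites found in both samples (top), replicate 1 peaks (middle) and replicate 2 peaks (bottom), against the distance in Mb from the most proximal peak. Bars are counts, each panel has its own vertical scale, and all 3 panels fall towards the centromere side at right, where the last 1.5 Mb have 3 sites.

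The 5 windows with most sites were spread over the arm, with no neighbours among them. The window 3L:8600001-8700000 had 15 sites (22 peaks in each replicate), with scores from 1.86 to 11.5 and a median of 2.71. An equal number of sites stood in 3L:17500001-17600000 (20 and 22 peaks), where the median score was higher, at 4.48. Then came 3L:3400001-3500000 with 14 sites (19 and 22 peaks, median score 3.10) and 3L:10600001-10700000 with 13 (24 and 24 peaks, 3.06). The fifth, 3L:17900001-18000000, also had 13 sites (17 and 17 peaks, 3.62). Of these 5 windows, 2 had a median score above the arm's median of 3.57 and 3 had one below it.

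Wider domains were outlined by runs of at least 3 adjacent windows with 4 or more sites each, a rule chosen after the values had been seen. There were 14 such domains, which took up 21.1% of the windows and 41.0% of the sites. They held 334 sites, 499 replicate 1 peaks (37.7% of those on 3L) and 529 replicate 2 peaks (38.3%). The rule makes the domains rich in sites, and the replicate shares follow in part, since every site is a peak of both. The densest was 3L:10600001-10900000, with 34 sites or 113 per Mb (163 and 190 peaks per Mb in replicates 1 and 2). The domain 3L:3000001-3500000 had 45 sites or 90 per Mb (134 and 168), and 3L:500001-900000 had 35 sites or 87.5 per Mb (132.5 and 110). Another, 3L:18600001-18900000, had 60 sites per Mb (100 and 113) and was the domain with the highest median score, 5.40. The lowest median score among the 14, 2.92, was that of 3L:12600001-12900000, with 40 sites per Mb.

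At the finest scale, 115 of the 815 sites stood in 19 chains, defined as 5 or more sites with at most 5 kb between neighbours. The other large arms had 10 (2L), 16 (2R), 24 (3R) and 16 (X) such chains. The longest on 3L was 3L:8666001-8701494, with 13 sites in 35.5 kb (18 and 20 peaks in replicates 1 and 2). Its sites had a median width of 414 bp and a range of 80 to 1118 bp, and their scores were low, between 1.86 and 4.16 with a median of 2.38. The nearest sites outside the chain scored 3.31 on the distal side and 3.67 on the proximal side. Farther out stood high-scoring single sites, at 3L:8645094-8645199 with a score of 11.5 and at 3L:8742041-8742210 with a score of 12.4. They ranked 9 and 8 on the arm. Of the 4 chains with 7 sites, 3L:540493-557665 had a median score of 2.99 and 3L:14748120-14755179, which was 7.06 kb long, had 3.19. In 3L:17556565-17573050 the scores were higher, with a median of 4.18 and a maximum of 8.27. The other chain of 7, 3L:627884-656652, is part of the wide sites described below.

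Sites in chains had lower scores and were wider than isolated ones. The 115 chained sites had a median score of 3.02 (interquartile range 2.40 to 3.99) and a median width of 262 bp. The 33 sites with no other site within 50 kb had a median score of 4.66 (2.98 to 6.34) and a median width of 162 bp. For the 667 sites between these classes the medians were 3.63 and 178 bp. Replicate 1 gave median scores of 2.94 in chains and 4.30 for isolated sites, and replicate 2 gave 3.05 and 4.49. The order was thus the same in both samples, and the interquartile ranges overlapped. Leaving out the chain with the very wide sites changed the chained median little, to 3.03 over 108 sites.

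The longest stretches without a site lay close to the centromere. Of 15 stretches of at least 200 kb, the 3 longest were within the last 3 Mb. They were 3L:23251936-24021344 (769 kb), 3L:24021627-24529157 (508 kb) and 3L:22281815-22710307 (428 kb). The other 2 of the 5 longest lay in mid-arm, 3L:9892394-10275067 (383 kb) and 3L:7428552-7802838 (374 kb). The single lists held peaks in 4 of these 5 stretches. The one at 22281815 had no peak in either replicate and was the longest part of 3L free of any peak, followed by 3L:13597203-13838481 (241 kb). The one at 9892394 had 3 peaks in replicate 1 and 1 in replicate 2. That at 7428552 had 7 in each, with scores up to 14.5 in replicate 1 and 10.3 in replicate 2. The 2 longest stretches held more, with 10 and 16 peaks in the one at 23251936 and 9 and 6 in the one at 24021627. The highest scores there were 7.35 and 18.2 in the first of these and 6.97 and 7.18 in the second. A stretch without a site was thus free of peaks in both lists in 1 of these 5 cases.

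Near the distal end, 8 of the 12 sites of 3L that were at least 1000 bp wide lay within 50.6 kb, at 3L:606102-656652. This group was singled out for great width and low score, so both are described here and are no separate result. The stretch held 7 peaks of that width in replicate 1 and 9 in replicate 2. The 8 sites had low scores, from 1.19 to 2.20 with a median of 1.72, against a median of 3.57 over the arm. The widest, at 3L:651807-656652, was 4846 bp wide in replicate 2 and 1976 bp in replicate 1, and its scores of 1.14 and 1.24 made it the lowest of the 815 sites (score 1.19). The site at 3L:634449-637277 spanned 2829 bp and ranked next to last, with 1.19 in replicate 1 and 1.204 in replicate 2. That at 3L:611567-612719 (1153 bp) had 1.29 in replicate 1 and 1.18 in replicate 2. The 4 lowest scores of the arm were all in the group, and in the 7 sites with 1 peak in each sample the replicate scores differed by at most 1.34-fold.

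The other wide sites of the group scored slightly higher. The site at 3L:633001-634162 (1162 bp) had 1.53 in replicate 1 and 1.57 in replicate 2. Its neighbour at 3L:639237-641716 (2480 bp) had a score of 2.20 and joined 2 peaks of replicate 1 with 1 of replicate 2. At 3L:646610-648022 (1413 bp) the scores were 1.64 and 2.21, the largest difference within the group. The remaining members had almost equal scores in replicates 1 and 2, with 1.86 and 1.91 at 3L:648408-649781 (1374 bp), and 2.17 and 2.20 at 3L:606102-607521 (1420 bp). Replicate 2 covered more of the merged site than replicate 1 in 7 of the 8. In replicate 1 the peaks spanned between 40.8% and 99.2% of the site.

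**Figure D2:**
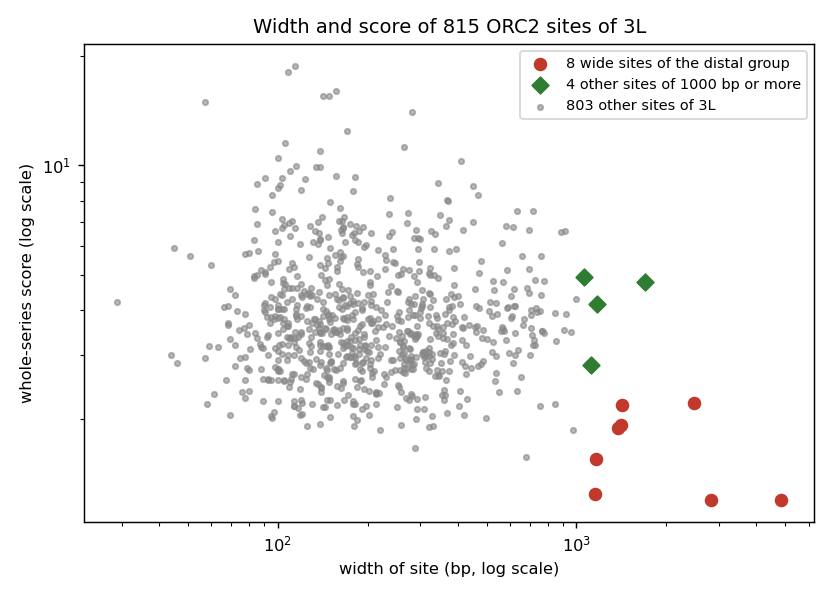
Score against width in bp of the 815 ORC2 sites of 3L, both on log scales, 1 point per site. The 8 wide sites of the distal group (red) lie below a score of 2.21 and the 4 other sites of at least 1000 bp (green) lie at 2.82 or above.

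The same stretch held sites of ordinary score and additional low-scoring peaks. Among its 10 sites, 2 were narrower, at 3L:616446-617154 (709 bp, score 3.41) and 3L:627884-628607 (724 bp, score 3.19). Another 3 replicate 1 peaks and 5 replicate 2 peaks touched none of the other sample. Those of replicate 1 scored between 1.32 and 1.496 and those of replicate 2 between 1.28 and 2.88. The sites took up 35.8% of the stretch, against 0.893% of the arm, and held 8.27% of all bases in 3L sites with 1.23% of the sites. On 3L, 6 sites scored under 1.7, and 4 of them were in this stretch. Of the single peaks under 1.7, it held 9 of 18 in replicate 1 and 8 of 22 in replicate 2. Low scores were thus concentrated in this stretch in both lists, but the majority of the low-scoring replicate 2 peaks lay elsewhere on the arm.

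**Figure D3:**
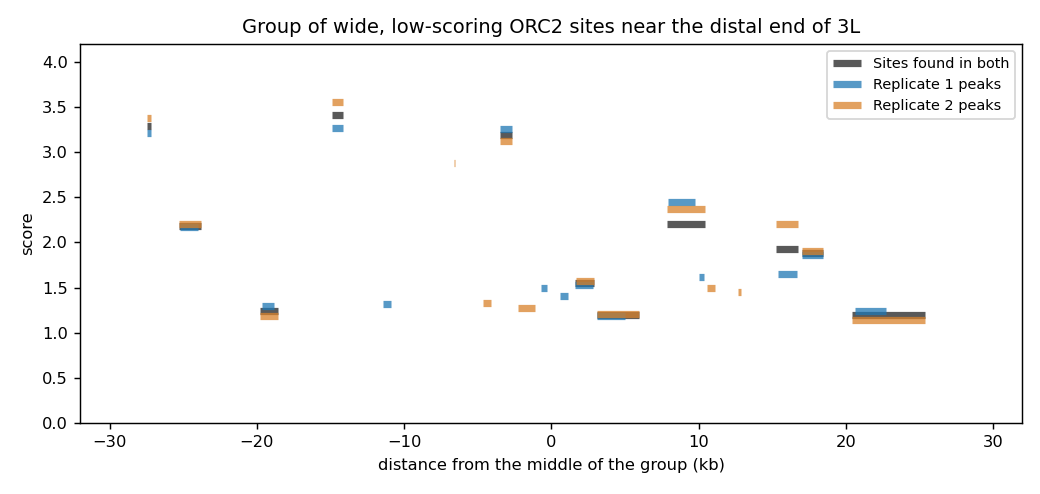
Sites found in both samples (black), replicate 1 peaks (blue) and replicate 2 peaks (orange) around the group of wide sites, drawn as bars as long as the peak, at the height of their score, against the distance in kb from the middle of the group. Most bars lie between scores of 1.14 and 2.45, with 2 narrower sites above 3 inside the group.

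The 4 wide sites elsewhere on 3L were different in score. They were at 3L:8690889-8692006 (1118 bp, score 2.82), 3L:10729856-10730911 (1056 bp, 4.91), 3L:16044924-16046625 (1702 bp, 4.78) and 3L:22941034-22942201 (1168 bp, 4.14). Their scores and those of the distal group did not overlap. Just under the width limit, a site of 999 bp at 3L:22828200-22829198 scored 4.29 and one of 974 bp at 3L:8670844-8671817 scored 1.86. The other large arms had 9 (2L), 6 (2R), 13 (3R) and 15 (X) sites of at least 1000 bp. No more than 4 of those (2R) stood within any 100 kb, against 8 on 3L. Their median score was 3.93 on 2L, 2.17 on 2R, 3.43 on 3R and 3.24 on X, against 2.05 for the 12 wide sites of 3L. Over all 815 sites width and score were almost unrelated (Spearman's rho -0.05, or -0.03 over the 805 sites outside the stretch, a description across sites of the same 2 libraries). The median score of sites of 500 to 999 bp, 3.84 over 78 sites, was above that of sites of 100 to 199 bp, 3.61 over 350 sites. Low score thus went with great width in the distal group, which was singled out for both, and not generally on the arm. Copy number and the input signal over this stretch were not analysed here, and their part in these widths and scores was not tested.

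The distal end outside the group had more sites found in both samples per Mb than the middle of the arm. The first site was at 3L:128500-128647 with a score of 2.60, and the first single peaks started at 104310 in replicate 1 and 123885 in replicate 2. The distal 2 Mb had 47 sites per Mb (65 and 68 peaks per Mb in replicates 1 and 2), against 34.1 per Mb (55.8 and 58.0) between the 2 Mb at each end. These densities lie within the range of the first 23 bins of 1 Mb, 17 to 55 sites. With the 10 sites of the group's stretch left out, as was decided after seeing the values, the distal 2 Mb had 42 per Mb. Their median width then was 149.5 bp and their median score 3.11. The replicate values above still include the group's 14 and 15 peaks. Over the distal 3 Mb, group included, replicate 1 had 58.3 peaks per Mb, against 58.1 between the 3 Mb at each end. In replicate 2 the values were 64.7 and 59.7. For the sites they were 42.3 and 35.3. With the group included, both single lists were thus denser over the distal 2 Mb, but little or no denser over 3 Mb. Their densities without the group were not computed, so they cannot be set beside the 42 sites per Mb. In the distal 2 Mb of the other arms there were 45.5 (2L), 43.5 (2R), 36 (3R) and 25 (X) sites per Mb. Between the 2 Mb at each end those arms had 32.4, 39.5, 38.2 and 35.6. A higher distal density was thus seen on 2L and 2R too, but not on 3R or X.

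Towards the centromere, sites found in both samples became rare, while all peaks of each replicate, shared ones included, did so less. The last 2 Mb had 10 sites per Mb, against 35.3 over the rest of the arm. In replicate 1 the values were 25 and 56.6 peaks per Mb, and in replicate 2 they were 28 and 58.9. The last 1 Mb had 2 sites, while replicate 1 had 20 peaks there and replicate 2 had 18. The density next to the centromere was 0.283 of that in the rest of the arm for the sites, 0.442 for replicate 1 and 0.475 for replicate 2. Next to the centromere of the other arms, 2 Mb held 24.5 (2L), 9 (2R), 41.5 (3R) and 19 (X) sites per Mb, against 33.7, 39.9, 38.1 and 34.5 over the rest of those arms. On 3R the density was no lower there.

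The fall was not even, and an island of sites stood between poor stretches. Between 22100001 and 22700000 there was 1 site, at 3L:22281730-22281814 (85 bp, score 4.97), and 2 peaks in each replicate. An island of 17 sites followed at 3L:22710308-22942201, with 73.3 sites per Mb (112 and 108 peaks per Mb in replicates 1 and 2). The island was bounded by its own first and last site, which raises its density. It was not among the 14 domains above. Its sites had scores from 2.80 to 9.29 with a median of 3.77, and a median width of 182 bp, close to the arm as a whole. The highest of them, at 3L:22856804-22856985, had 8.29 in replicate 1 and 10.3 in replicate 2. Proximal to this island the last 1.53 Mb of the arm, from 23000001, had 3 sites (1.96 per Mb) with 24 replicate 1 peaks and 30 replicate 2 peaks.

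These 3 proximal sites all scored above the arm's median. The first, at 3L:23251719-23251935, had 5.97 in replicate 1 and 5.69 in replicate 2. At 3L:24021345-24021626 the scores were 8.90 and 19.2, a factor of 2.16, and its mean of 14.1 ranked 7 of 815. The last site of the arm, at 3L:24529158-24529276, had 6.19 in replicate 1 and 5.96 in replicate 2. Among the 10 highest-scoring sites of 3L, the middle one was the most isolated, with 508 kb to its nearest neighbour, and its score differed most between the samples.

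**Figure D4:**
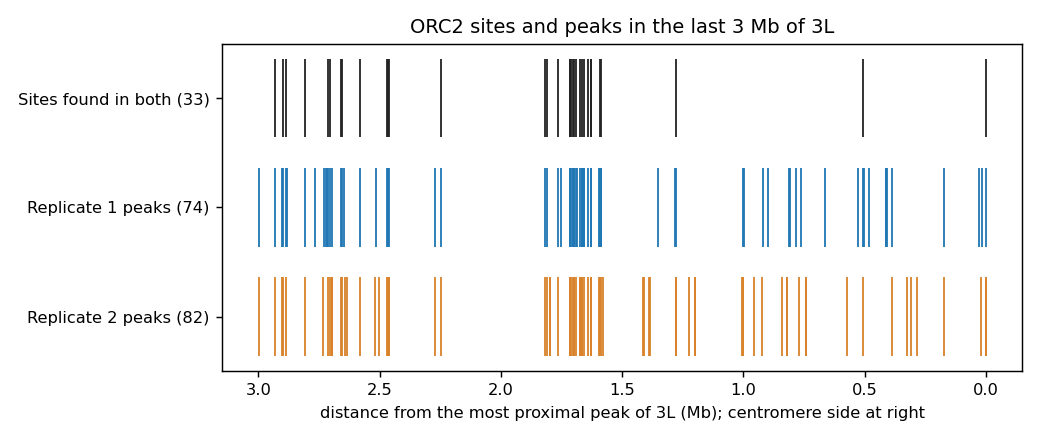
Positions of the 33 sites, 74 replicate 1 peaks and 82 replicate 2 peaks in the last 3 Mb of 3L, as vertical lines against the distance in Mb from the most proximal peak. A cluster of lines is seen in all 3 rows between 1.5 and 2 Mb, and in the last 1.5 Mb both replicates have peaks while 3 sites are left.

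In the last 2 Mb, replicate 1 had 50 peaks, of which 21 touched one of the other sample (42%, exact binomial 95% interval 28.2 to 56.8%). Replicate 2 had 56, of which 20 did so (35.7%, 23.4 to 49.6%). Intervals cover the counting of peaks only. The shared peaks are those that make up the 20 sites of these 2 Mb, so the shares restate the densities of sites and peaks given above. Over the same length of the other arms the shares in replicates 1 and 2 were 53.3% and 46.2% on 2L, 47.4% and 26.9% on 2R, 65.6% and 58.6% on 3R, and 65% and 62.9% on X. Over the whole of those arms the shares were 61.4% and 58.5% on 2L and 65.5% and 58.7% on 2R. On 3R they were 67.4% and 62.8%, and on X 65.6% and 55.7%. Shares next to the centromere were thus lower than over the arm on 2L and 2R as well as on 3L. On 3R they were slightly lower, and on X the share was not lower in replicate 2. Of the shared peaks in these 2 Mb of 3L, 18 of 21 in replicate 1 and 17 of 20 in replicate 2 lay between 1.5 and 2 Mb from the end, where the island is. A limit of 1.5 Mb, set after the positions of the sites had been seen, leaves the island out. Since a site is a shared peak, the 3 sites left there fix the shared peaks at 3 of 24 in replicate 1 and 3 of 30 in replicate 2, which is no separate result. On the rest of the arm 822 of 1301 and 823 of 1353 were shared. In the last 1.5 Mb narrow peaks were common in replicate 2, with a median width of 52 bp against 106 bp on the rest of the arm, but not in replicate 1, with 100 bp in both. Among peaks of at least 100 bp, 3 of 13 in replicate 1 and 2 of 5 in replicate 2 were shared next to the centromere, against 89.0% and 83.1% on the rest of the arm. These shares are bounded by the same 3 sites and are no separate result either. For peaks without a partner, the nearest peak of the other sample was a median of 9360 bp away in replicate 1 and 23465 bp in replicate 2, against 2153 bp and 1928.5 bp on the rest of the arm, where peaks were denser. Within 1 kb of such a peak the other sample had one in 4 of 21 cases for replicate 1 and 3 of 27 for replicate 2, against 163 of 479 and 195 of 530 on the rest of the arm. As the limit was set to leave the island out, these distances and counts only describe the chosen stretch. Median scores there were 3.41 and 3.92 in replicates 1 and 2, against 3.30 and 3.42 on the rest of the arm. How much of this sequence short reads can cover was not examined, and its part in the result was not tested. The separately assembled heterochromatin of 3L had 7 sites over 2.55 Mb (2.75 per Mb), with 17.7 and 16.9 peaks per Mb in the single lists.

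Over the whole arm, 825 of 1325 replicate 1 peaks touched one of replicate 2 (62.3%, exact binomial 95% interval 59.6 to 64.9%). In the other direction 826 of 1383 (59.7%, 57.1 to 62.3%) did. On the other large arms the shares were 61.4 to 67.4% for replicate 1 and 55.7 to 62.8% for replicate 2. The share rose with width, from 10.2% of replicate 1 peaks under 20 bp to 46.4% at 50 to 99 bp, 85.3% at 100 to 199 bp and 95.6% from 400 bp upwards. The same classes had 12.3%, 45.4%, 78.2% and 95.05% in replicate 2. Wide intervals have more bases with which to touch, and the shares are not corrected for that. The share also differed along the arm. In the first 23 bins of 1 Mb it was between 40.9% (12 to 13 Mb) and 87.2% (6 to 7 Mb) in replicate 1. In replicate 2 it was between 44.2% (4 to 5 Mb) and 80.6% (13 to 14 Mb). All these bins were above the bin from 23 to 24 Mb, which had 8.33% (1 of 12 peaks) in replicate 1 and 4.76% (1 of 21) in replicate 2. The last bin, from 24 Mb, had 16.7% (2 of 12) and 22.2% (2 of 9). With 1 and 2 sites in these bins, the low shares restate the lack of sites.

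The 10 highest-scoring sites were 57 to 282 bp wide, against an arm median of 186 bp (interquartile range 126 to 316.5 bp). They stood mostly in the proximal part of the arm, with 6 of them beyond 18 Mb. The highest, at 3L:19900561-19900674 (114 bp), had 20.2 in replicate 1 and 17.5 in replicate 2, ranks 1 and 5 among the peaks of 3L. It stood in a chain of 5 sites whose median score was 4.08. The second, at 3L:19476239-19476346 (108 bp), had 19.7 and 16.6 and was isolated, with 69048 bp to its nearest neighbour. The third, at 3L:3789272-3789428 (157 bp), had 18.5 and 13.6. That at 3L:21646013-21646160 (148 bp) had 15.2 and 16.0, and at 3L:18453539-18453680 (142 bp) the scores were 11.6 and 19.5. The sixth, at 3L:18076697-18076753, was the narrowest at 57 bp, with 12.6 and 17.4. After the centromere-proximal site with 14.1 and the 2 sites named above with the longest chain, the tenth was at 3L:12117301-12117565 (265 bp), with 11.2 and 11.3. Of these 10 sites, 4 lay in the 2 Mb from 18 to 20 Mb. All ranked within the first 30 peaks of each replicate on the arm. As they were chosen by the mean of the replicate scores, high ranks in both follow in part from the choice.

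The samples gave similar scores to the same site. Over the 794 sites with 1 peak in each, Spearman's rho was 0.775, and on log10 scores Pearson's r was 0.826, descriptions across sites that share the libraries and possibly a control. The difference of replicate 2 minus replicate 1 had a median of 0.07 and an SD of 0.35 on the log2 scale. Scores were within 1.5-fold for 714 sites (89.9%) and more than 2-fold apart for 6. In all 6 replicate 2 was higher. The most unequal site was 3L:16029958-16030542, with 2.18 in replicate 1 and 5.90 in replicate 2, where a peak of 583 bp in replicate 1 met one of 199 bp in replicate 2. Next were 3L:11783086-11783210 (2.68 and 6.15), the site at 24021345 named above, 3L:21825770-21825907 (3.42 and 7.22) and 3L:19085699-19085819 (2.81 and 5.87). Widths were less alike than scores, with a Spearman's rho of 0.669 over the same sites.

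**Figure D5:**
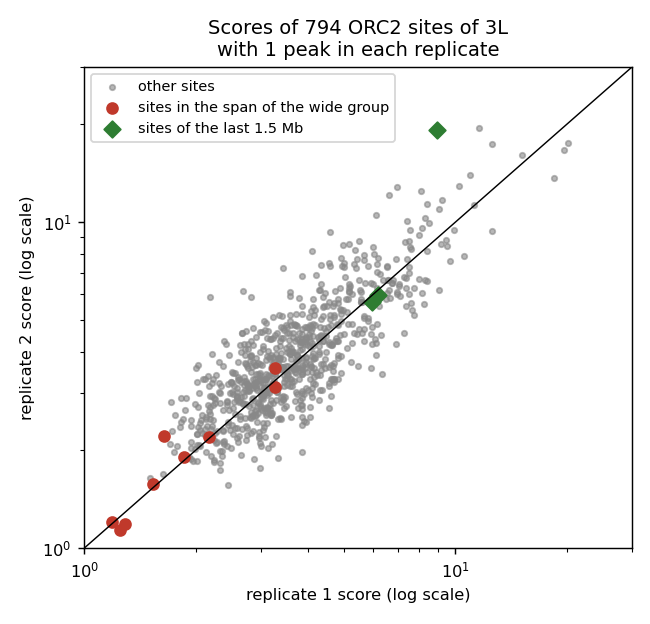
Replicate 2 score against replicate 1 score of the 794 sites of 3L with 1 peak in each sample, on log scales, with the line of equal scores. The sites in the stretch of the wide group (red) lie near the line, most at the low end and 2 with scores above 3 in both samples, and of the 3 sites of the last 1.5 Mb (green) 1 lies far above it, at 8.90 and 19.2.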

How the data were processed

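Peak lists of the 2 ORC2 ChIP samples and of the whole series were used. Reads, signal tracks and the input sample were not used here. The coordinates are FlyBase release 5 and the caller is PeakSeq, per the file headers and columns. The authors deposited a score per peak without stating its scale. The aligner, like the caller's version, threshold and control, is not given in the sources used here. Each replicate's peaks are named and numbered separately, which means they were called per sample.

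Sites were placed by their centres. Arm length was the last base of any peak. Windows (100 kb), chains, stretches, widths and overlaps (at least 1 bp) were computed with Python 3.11.15 (pandas 2.3.3, numpy 2.4.6 and scipy 1.17.1) and drawn with matplotlib 3.10.9. The code was tested on simulated lists. Shares have exact binomial 95% intervals. No test was made.

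Named were the 10 highest-scoring sites, 5 fullest windows, 5 largest chains, 5 longest stretches, sites of at least 1000 bp, the ends of the arm and the 5 sites with the most unequal replicates. Domains, the island and the 1.5 Mb limit near the centromere, flanking sites and other bins were added after seeing values. The members and rules were chosen with earlier results of these data known. Alternatives were other window, width, linking and overlap limits, the top 50% of scores, and each replicate alone.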

Additional observations from a re-analysis of the deposited data

How the results depend on the processing

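The lower density of sites next to the centromere than over the rest of 3L held in each list and at 1, 2 and 3 Mb, with ratios between 0.0579 (sites, last 1 Mb) and 0.475 (replicate 2, last 2 Mb). The wide sites of the distal 1 Mb numbered 7 to 9 with each replicate alone, 15 at 500 bp and 3 at 2000 bp. The other values moved with the limit or list used, and the reason was not tested. With one replicate left out, densities were 54.0 to 56.4 per Mb for the arm and 25 to 28 for its last 2 Mb, empty windows 11.8 to 13.4%, chains 42 to 46 and stretches 5 to 7. The 50% of sites with the highest scores gave 16.6 and 6 per Mb, 35.0% empty windows, 0 chains and 23 stretches. Merging sites under 1 kb apart gave 27.4 per Mb and 5 chains. The last 1 Mb had 2 per Mb. Windows of 50 and 200 kb were empty in 40.7% and 7.32%. Linking at 2 and 10 kb gave 4 and 32 chains, and minimum lengths of 150 and 300 kb gave 30 and 8 stretches. Shares touched were 44.2% and 42.4% (50% of both peaks), 68.6% and 67.5% (centres within 500 bp) and 56.6% and 54.7% (top 50% of each list) in replicates 1 and 2. Spearman's rho was 0.808, 0.756 and 0.816 with 50% of both peaks, centres within 500 bp, and widths of at least 100 bp, for reasons not tested here. No paired analysis was possible because the ORC2 samples form a single group. Without read counts, single-sample peaks cannot be weighed by depth.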

Other observations

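Some of the highest scores on 3L belonged to peaks of a single sample. The 5 highest of these had widths of 1 to 86 bp in replicate 1 and of 2 to 132 bp in replicate 2. Of the 20 highest-scoring peaks of 3L, 13 in each replicate touched a peak of the other. The highest score of replicate 2 on the arm, 25.04, was a peak of 34 bp at 3L:21532516-21532549 with no touching partner, 697 bp from the nearest replicate 1 peak. The next of replicate 2 scored 18.2 and was 126 bp wide, at 3L:23331190-23331315, with 79297 bp to the nearest replicate 1 peak. In replicate 1 the highest without a partner scored 14.5 and was 1 bp wide, at 3L:7601742-7601742, with 45875 bp to the nearest replicate 2 peak. Peaks of 1 bp numbered 12 in replicate 1 and 15 in replicate 2, and 1 and 4 of them touched a peak of the other sample.

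Exact scores recurred within a list. Among replicate 1 peaks of 3L under 100 bp, 575 of 630 (91.3%) had a score that another peak of the arm also had, against 329 of 695 (47.3%) at 100 bp or more. In replicate 2 the counts were 545 of 621 (87.8%) and 327 of 762 (42.9%). The score of 11.6 in replicate 1 stood at the shared site 3L:18453539-18453680 and again at a 15 bp peak without a partner, at 3L:18691262-18691276. The reason for these ties was not tested.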
